A study of Mus musculus with 9 samples.

Results

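The 50 genes described here are immediate-early, heat-shock and dissociation response genes, a set chosen by gene name from transcripts known to rise when tissue is handled. All 50 were among the 39179 genes with deposited counts, and all 50 had enough counts to be tested, as did 13819 genes in all. They were measured by RNA sequencing of CD8+ cDC1, CD8- cDC2 and pDC from the spleens of C57BL/6J mice at steady state, in 3 libraries per subset. No library came from treated or stimulated animals, and the labels give no genetic change. The mice were 6 to 12 weeks old, the range in the methods for all but some chimeras. Each library came from a pool of 15 to 17 mice. Libraries with the same replicate number carried the same date code in the 3 subsets, so each number is called a sort below. According to the methods of the study, spleens were digested with collagenase and DNase, dense cells and other lineages were removed, and DCs were labelled and sorted by flow cytometry. Every library had therefore been through digestion and sorting, and none gives the levels before these steps. The question was which differences between the subsets in these genes were stable over the 3 sorts, and how the sorts differed within each subset.

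The subset labels were checked against marker transcripts, as CPM after TMM scaling (counts over the scaled library total). Xcr1, a cDC1 chemokine receptor, ran from 929 to 947 CPM in cDC1 and was at most 64.9 CPM elsewhere. Itgam, which encodes CD11b, ran from 221 to 248 CPM in cDC2 and was at most 15.8 CPM elsewhere, and Siglech ran from 4330 to 5110 CPM in pDC and was at most 33.9 CPM elsewhere. Totals were between 15806597 and 32453789 counts, and sort 3 had the lowest total in each subset. At these depths 3 counts correspond to between 0.0924 and 0.190 CPM, a limit that covers counting error only. In such bulk samples, fewer cells that make a transcript and less transcript per cell cannot be told apart. Below, 3 values after a subset's name are sorts 1, 2 and 3 in that order.

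Immediate-early genes are transcribed within minutes of a signal, without new protein synthesis. Their promoters are switched on by factors that are already present, such as SRF with its ternary complex partners at CArG boxes and CREB at cAMP response elements. Many encode transcription factors (FOS and JUN, which pair as AP-1, and the EGR and NR4A families), and others encode inhibitors that end the signal, such as the dual specificity phosphatases and the mRNA-destabilizing protein ZFP36. Heat-shock genes are driven by HSF1 at heat shock elements and encode chaperones that refold damaged proteins. Both groups are known to respond to enzymatic digestion and warming of tissue, and NR4A and EGR genes are also known as targets of antigen receptor and other surface receptor signals in leukocytes.

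The promoter sequences of members were searched for these elements, to show which of the genes carry an exact match in the window nearest their start. A promoter here runs from 250 bases before to 50 bases after a start site in RefSeq (GRCm38.p6), and 42 of the 50 members had an entry, leaving Egr1, Egr3, Ier2, Klf10, Hsf1, Hspa8, Hsp90aa1 and Hsp90ab1. The cAMP response element was searched as TGACGTCA, the AP-1 site as TGANTCA on both strands, the heat shock element as GAA, TTC and GAA with 2 bases between each of them, and the CArG box was searched by its usual consensus. A cAMP response element was found in 4 of the 42 members (9.52%) and in 2.03% of the 27025 genes with a promoter entry. The heat shock element was found in 3 members (7.14%; 0.662% of all genes), the CArG box in 3 (7.14%; 1.81%) and the AP-1 site in 3 (7.14%; 8.97%), the last being Bag3, Csrnp1 and Zfp36l1. A match is a description of letters and not a bound site. A gene without a match may still hold a variant of the element, or one outside the window, as neither was searched. The stretches below show 1 match for each of the other genes, with the matched element in capitals, and Dusp5, Egr2, Hspd1 and Hspe1 held a further match that is not printed.
Dusp1 (cAMP response element; chr17:26508597-26508626, minus strand): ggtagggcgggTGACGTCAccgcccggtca
Btg2 (cAMP response element; chr1:134079303-134079332, minus strand): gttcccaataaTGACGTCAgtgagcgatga
Maff (cAMP response element; chr15:79347480-79347509, plus strand): ggctggggcggTGACGTCActgcatgactg
Ppp1r15a (cAMP response element; chr7:45526262-45526291, minus strand): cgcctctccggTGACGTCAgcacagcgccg
Egr2 (CArG box; chr10:67537787-67537816, plus strand): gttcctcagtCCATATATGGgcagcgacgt
Dusp5 (CArG box; chr19:53529063-53529092, plus strand): ccatatttggCCTTATATGGgcactcacgt
Zfp36 (CArG box; chr7:28379267-28379296, minus strand): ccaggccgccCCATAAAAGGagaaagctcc
Hspd1 (heat shock element; chr1:55088051-55088080, minus strand): ggccttccgGAAGGTTCTAGAAcggaccgt
Hspe1 (heat shock element; chr1:55088055-55088084, plus strand): tccgttctaGAACCTTCCGGAAggccccgc
Hsph1 (heat shock element; chr5:149636280-149636309, minus strand): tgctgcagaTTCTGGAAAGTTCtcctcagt
Hspd1 and Hspe1, which encode the mitochondrial chaperonin and its co-chaperonin, lie head to head on chromosome 1, and their matches come from the same stretch of DNA read on opposite strands. The genes with a cAMP response element did not share a pattern over the subsets. Maff was lower in pDC than in both cDC subsets, Ppp1r15a was lower in pDC than in cDC2, and Btg2 was higher in pDC than in cDC2. Dusp1 was lower in pDC in every sort but varied more between sorts than between subsets, as described below.

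The members differed in which axis they followed. EGR and NR4A genes, Atf3, Sgk1 and the inducible HSP70 genes Hspa1a and Hspa1b were lower in pDC than in cDC1 and cDC2 in every sort. The AP-1 genes, Klf6, Rhob, Ier5 and Dusp1 were highest in sort 3 in each subset, and of these genes only Fosl2 had a subset difference that passed the test without the sort as a term of the fit. In edgeR's quasi-likelihood test with an adjusted p threshold of 0.05 over all genes, 24 of 50 members differed between pDC and cDC1 (7 higher and 17 lower in pDC), beside 48.6% of all genes tested (24.3% higher and 24.4% lower). Between pDC and cDC2, 24 members differed (5 higher and 19 lower in pDC; 45.8% of all genes, with 22.5% higher and 23.3% lower). Between cDC2 and cDC1, 6 differed (4 higher and 2 lower in cDC2; 24.4% of all genes, with 12.7% higher and 11.7% lower), and 25 differed between any subsets (56.0%). A subset difference was called stable when it passed without and with the sort as a block and had the same sign in all 3 sorts. Differences called only with the block were thus not counted as stable. This held even where the sign was the same in all 3 sorts, as for Junb, Dusp1 and Ier2 in pDC against either cDC subset. All 24, 24 and 6 calls were stable by the definition, beside 48.1%, 45.2% and 24.3% of all genes. Among all genes called without a block, 6653 of 6718, 6251 of 6328 and 3352 of 3370 met it too. The definition therefore added little to the call itself. Of the members' calls, 7, 6 and 3 were lost in at least 1 case when a single library was left out. Without the 3 libraries of sort 1, in turn, 13, 13 and 1 members passed without a block, beside 3927, 3585 and 1207 of all genes. With all libraries 6718, 6328 and 3370 of all genes passed. Without sort 2, 16, 16 and 2 members passed. Some calls were lost without the whole of sort 1 or sort 2 but not without any single library. For pDC against cDC1 these were Atf3, Gadd45a, Ier3 and Mafk, and for pDC against cDC2 Atf3, Cebpg, Egr3, Gadd45a, Hspa8 and Hspd1. For cDC2 against cDC1 they were Btg1 and Egr3. The members' share over all libraries was near that of all genes for pDC and below it for cDC2 against cDC1. Over the members the log2 fold change had a median of -0.26 between pDC and cDC1 and of -0.40 between pDC and cDC2, beside 0.018 and -0.0088 over all genes.

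**Figure D1:**
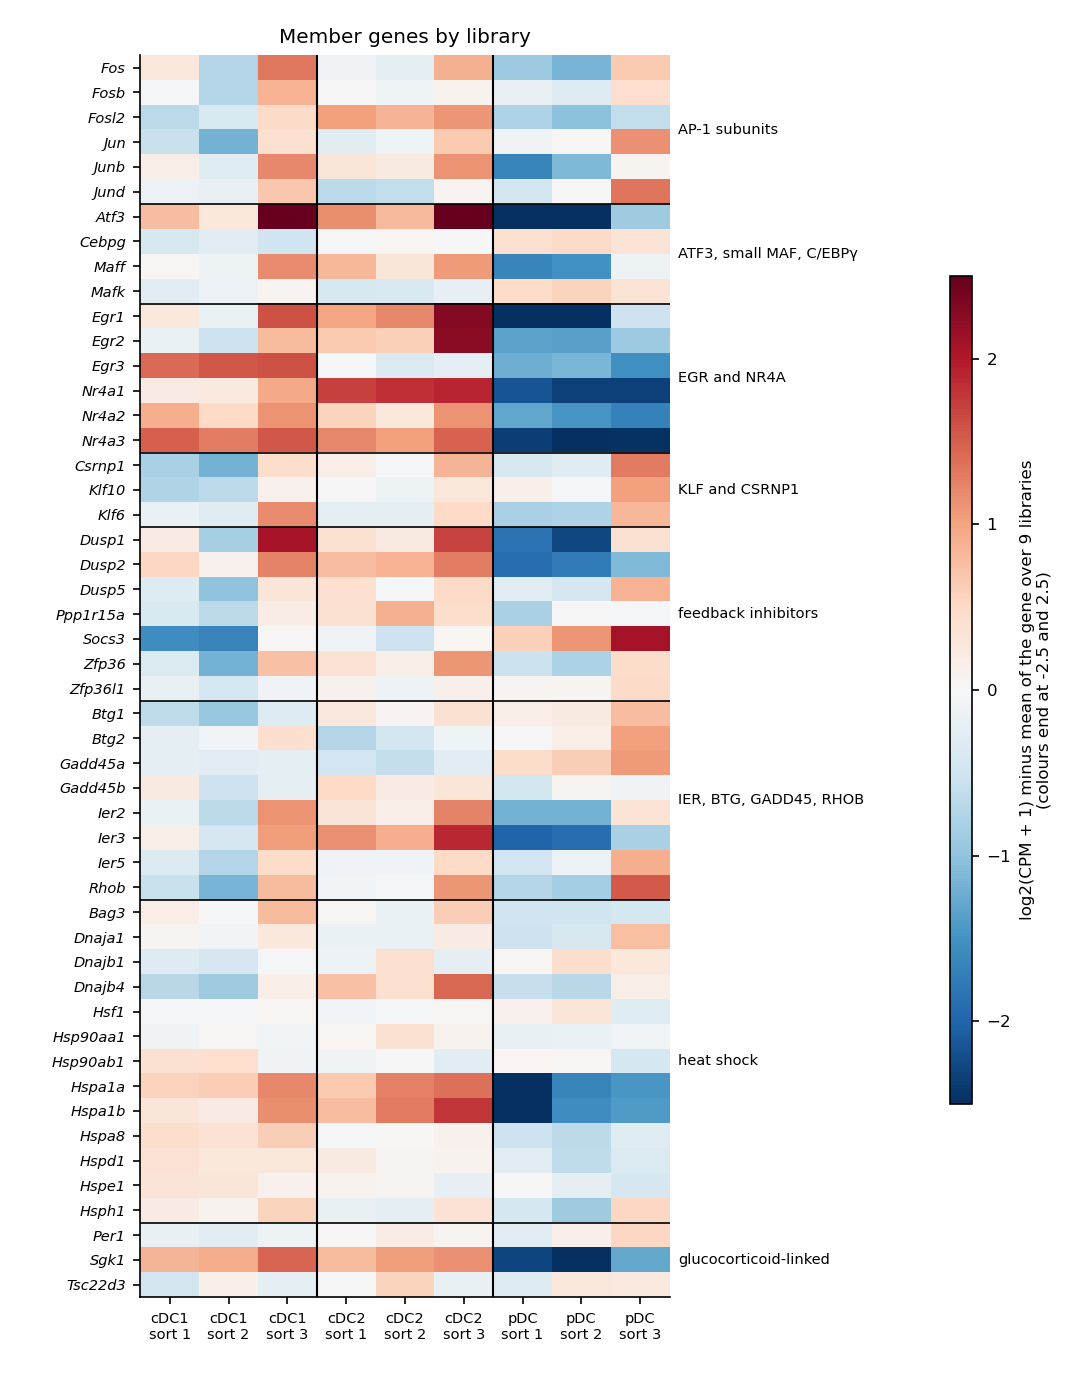
The 50 members (rows, grouped by role) in the 9 libraries (columns, sorts 1 to 3 within each subset), coloured by log2(CPM + 1) minus the gene's mean over the libraries, with colours ending at -2.5 and 2.5. The EGR and NR4A rows and Sgk1 are blue throughout pDC, while the rows of Fos, Klf6 and Rhob are reddest in the sort 3 column of each subset.

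The sorts differed in a larger share of members than of all genes. With subset and sort in the fit, 29 of 50 members differed between sorts, beside 16.3% of all genes. Against sort 1, sort 3 differed in 26 members, of which 24 were higher and 2 lower in sort 3 (13.7% of all genes; 5.62% higher and 8.03% lower). Against sort 2, it differed in 29, of which 28 were higher and 1 lower (20.6%; 9.65% higher and 11.0% lower). Between sorts 2 and 1, edgeR called 0 members and 0 of all genes, with 7 members and 983 genes at an unadjusted p under 0.05, and DESeq2 called 2 members and 141 genes. In 33 of 50 members sort 3 was the highest sort in each of the 3 subsets, beside 17.3% of all genes, while sort 1 and sort 2 were so in 2 members each (5.07% and 12.3% of all genes). The size of the sort 3 difference from the mean of the other sorts, on the log2(CPM + 1) scale, had a median over members of 0.719 (cDC1), 0.368 (cDC2) and 0.669 (pDC). Over all genes the medians were 0.00425, -0.0261 and -0.0215. Each sort was a single event with 1 library per subset, so the sort test measures a difference shared by the subsets and not a repeated condition. Without the cDC1 libraries 4 members passed the test for any sort difference, beside 182 of all genes (29 members and 2253 genes with all libraries). Without the cDC2 libraries 18 members passed, and without cDC1 replicate 3 alone 15 passed. Leaving out 1 library ended the sort call of 15 of the 29 members in at least 1 case. Klf10, Tsc22d3 and Hspe1 are given below, and Maff and Socs3 lost theirs without any 1 of the cDC1 or pDC libraries or cDC2 replicate 2. The others were Btg1 (cDC1 replicate 2 or 3 or pDC replicate 3), Egr2 (cDC1 replicate 3 or cDC2 replicate 2 or 3), Hspa1a (cDC1 replicate 3 or cDC2 replicate 1), Hspa1b (cDC1 replicate 3 or cDC2 replicate 3), Hsph1 (cDC2 replicate 3), and Dusp2, Dusp5, Hsp90ab1, Ier3 and Ier5 (cDC1 replicate 3).

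**Figure D2:**
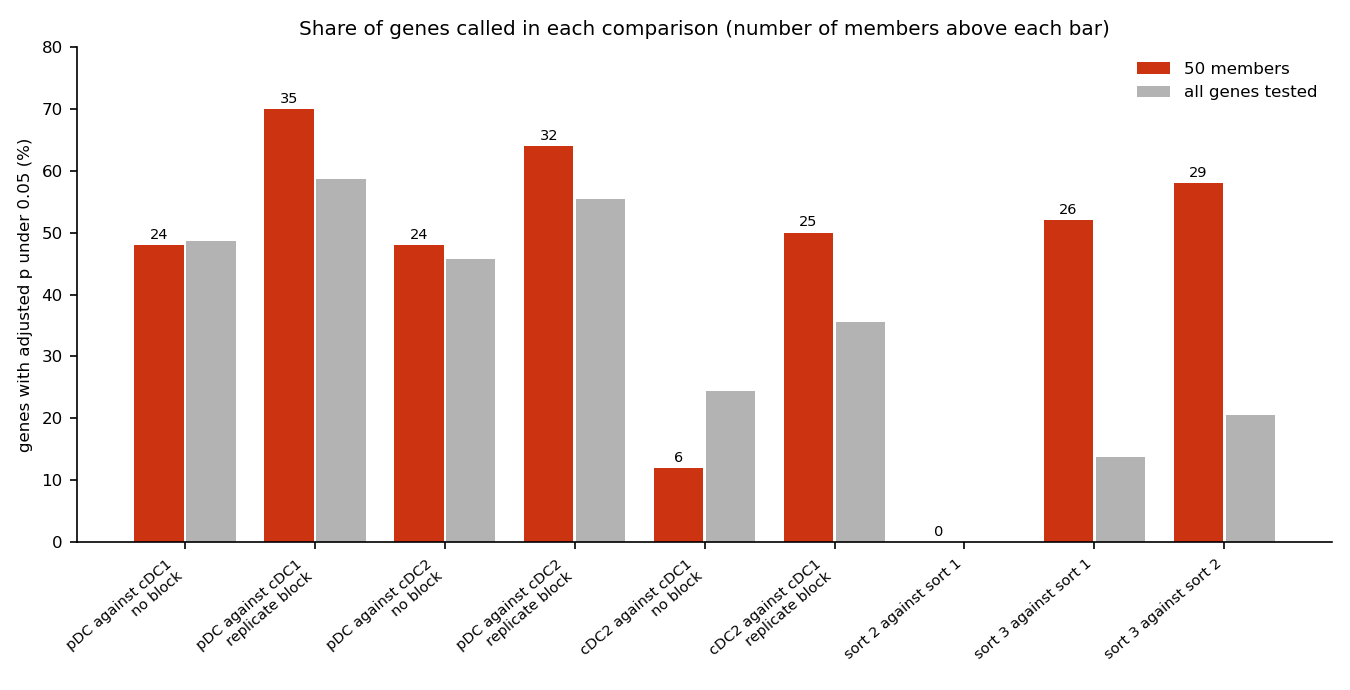
Share of the 50 members (red) and of the 13819 genes tested (grey) with an adjusted p under 0.05 in each comparison, with the number of members above the red bars and sort comparisons taken from the fit with subset and sort. The shares are close for pDC against either cDC subset without a block, and the members' share is 52% and 58% for sort 3 against sorts 1 and 2, beside 13.7% and 20.6% of all genes.

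Other measures moved with sort 3, and their part in the result was not tested. NK cell transcripts (6 genes) had their highest summed level in sort 3 in each subset, at 14.1, 10.01 and 33.4 CPM in cDC1, 24.2, 39.6 and 103 CPM in cDC2, and 20.4, 10.8 and 43.4 CPM in pDC, and 5 of the 6 genes were highest in sort 3 in all subsets. The sort gate included CD49b, an NK cell marker. Monocyte transcripts (6 genes) were highest in sort 3 in cDC1 and pDC but not in cDC2, and 3 of the 6 genes were highest in sort 3 in all subsets. In pDC most of the monocyte sum (2531, 2270 and 3430 CPM) was Ly6c2, at 2008, 1955 and 2715 CPM. Ly6c2 was at most 46.6 CPM in any cDC library, so the pDC sum is no measure of monocytes alone. Neutrophil transcripts (8 genes) summed to between 6.13 and 75.3 CPM over the libraries and were highest in sort 3 in each subset. T cell transcripts (7 genes) were highest in sort 3 in each subset too but summed to at most 19.9 CPM, with Cd3e at or below 0.943 CPM in every library. Of the other lists, B cell transcripts summed to between 56.4 and 99.7 CPM, plasma cell transcripts to between 72.0 and 428 CPM, macrophage transcripts to between 63.8 and 399 CPM and erythroid transcripts to between 37.2 and 68.0 CPM. Most of the plasma cell sum was Xbp1, at between 70.1 and 373 CPM. The mitochondrial share of counts was between 2.34% and 3.999% and was highest in sort 3 in cDC1 and pDC.

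On the scale of log2(CPM + 1), the sum of squares over the 9 libraries was split for each gene into a part between subsets, a part between sorts and a rest. The median member had 60.9% of its spread between subsets and 25.0% between sorts, beside 74.1% and 9.63% over all genes tested. The sort part exceeded the subset part in 18 of 50 members (36.0%) and in 20.5% of all genes. At the sort end were Rhob (83.2% between sorts), Klf6 (83.0%), Ier5 (79.4%) and Fos (75.9%). At the subset end were Egr3 (98.8% between subsets), Nr4a1 (98.5%), Nr4a3 (98.3%) and Cebpg (96.4%). Hsf1 had most of its spread in neither, with 80.2% in the rest.

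**Figure D3:**
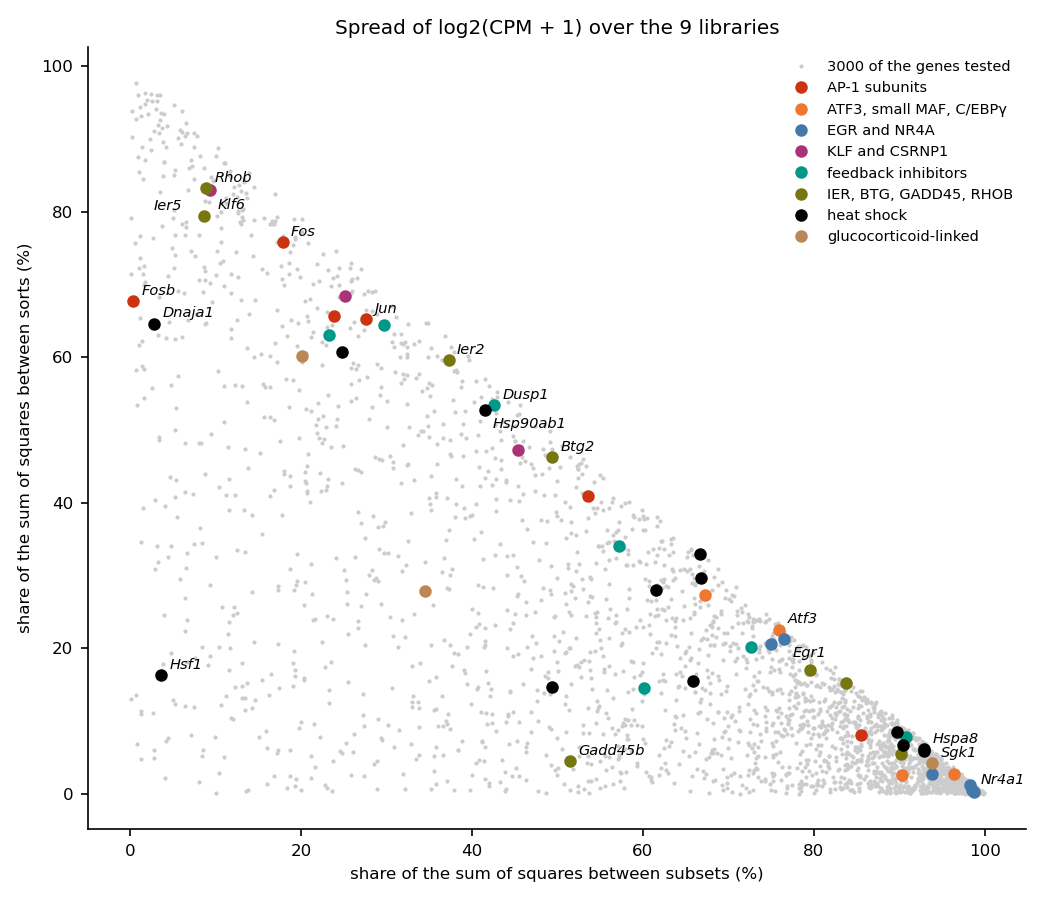
Share of each gene's sum of squares of log2(CPM + 1) over the 9 libraries that lay between subsets (x axis, %) and between sorts (y axis, %), for the 50 members coloured by role and 3000 of the genes tested in grey. EGR and NR4A genes lie at the lower right, whereas Klf6, Rhob, Ier5 and Fos lie at the upper left, with over 75% of their spread between sorts.

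The AP-1 members (Fos, Fosb, Fosl2, Jun, Junb and Jund) encode leucine zipper proteins that bind DNA as dimers. Fos (chromosome 12, 85473890 to 85477273, GRCm38) stood at 945, 463 and 1924 CPM in cDC1, 728, 648 and 1429 CPM in cDC2, and 409.9, 344 and 1208 CPM in pDC. Sort 3 was the highest in each subset, and the pDC range overlapped those of both cDC subsets. Without a block, Fos did not pass the test for pDC against cDC1 (log2 fold change -0.76 ± 0.59, adjusted p = 0.319) or pDC against cDC2 (log2 fold change -0.52 ± 0.59, adjusted p = 0.519). Within each sort, however, pDC were below both, with differences of -1.20, -0.43 and -0.67 against cDC1 on the log2(CPM + 1) scale. With the sort as a block, Fos was called lower in pDC than in cDC1 (log2 fold change -0.78 ± 0.18, adjusted p = 0.00477) and cDC2 (log2 fold change -0.67 ± 0.18, adjusted p = 0.0109). Jun, its dimer partner, went the other way. Its levels were 515, 332 and 993 CPM in cDC1, 622, 703 and 1192 CPM in cDC2, and 710.1, 772 and 1677 CPM in pDC, so that pDC were the highest subset in every sort. Against cDC1 the difference was 0.78 ± 0.45 without a block (log2, adjusted p = 0.183) and 0.80 ± 0.15 with it (adjusted p = 0.00186), and against cDC2 it passed in neither fit (adjusted p = 0.593 and 0.168). Per kb of merged exon, mean Fos was above mean Jun in cDC1 (472 and 192 CPM per kb) and below it in pDC (278 and 330.2 CPM per kb), and these values are given with no test. Junb, at 281, 203 and 582 CPM in cDC1, 312, 296 and 547 CPM in cDC2, and 79.1, 115 and 264 CPM in pDC, was lower in pDC than in both cDC subsets in every sort, a difference called only with the block (log2 fold change -1.25 ± 0.18, adjusted p = 3.69e-04 for pDC against cDC1 and log2 fold change -1.45 ± 0.18, adjusted p = 1.63e-04 for pDC against cDC2).

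Of the other AP-1 members, Fosl2 was the only one with a stable subset difference as defined above, which leaves out calls made only with the block. It stood at 0.874, 1.29 and 3.18 CPM in cDC1, 5.07, 4.41 and 5.37 CPM in cDC2, and 0.757, 0.456 and 0.943 CPM in pDC and was lower in pDC than in cDC2 (log2 fold change -2.78 ± 0.53, adjusted p = 0.00182). Every cDC2 library was above every cDC1 and pDC library. Jund stood at 152, 148 and 269 CPM in cDC1, 105, 109.7 and 175 CPM in cDC2, and 123, 166 and 426 CPM in pDC and Fosb at 236, 144 and 441 CPM in cDC1, 242, 224 and 258 CPM in cDC2, and 211, 194 and 325 CPM in pDC. Sort 3 was the highest for both genes in every subset. Jund was called higher in pDC than in cDC2 only with the block (log2 fold change 0.72 ± 0.18, adjusted p = 0.0078), and 52.6% of its exon bases are antisense to Gm11175, whose reads cannot be told apart from it where counting ignores strand. All 6 AP-1 genes were highest in sort 3 in each subset (17.3% of all genes), and 4 of them (Fos, Jun, Junb and Jund) passed the test for a sort difference (16.3% of all genes), with adjusted p between 0.00132 for Fos and 0.00541 for Jund.

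**Figure D4:**
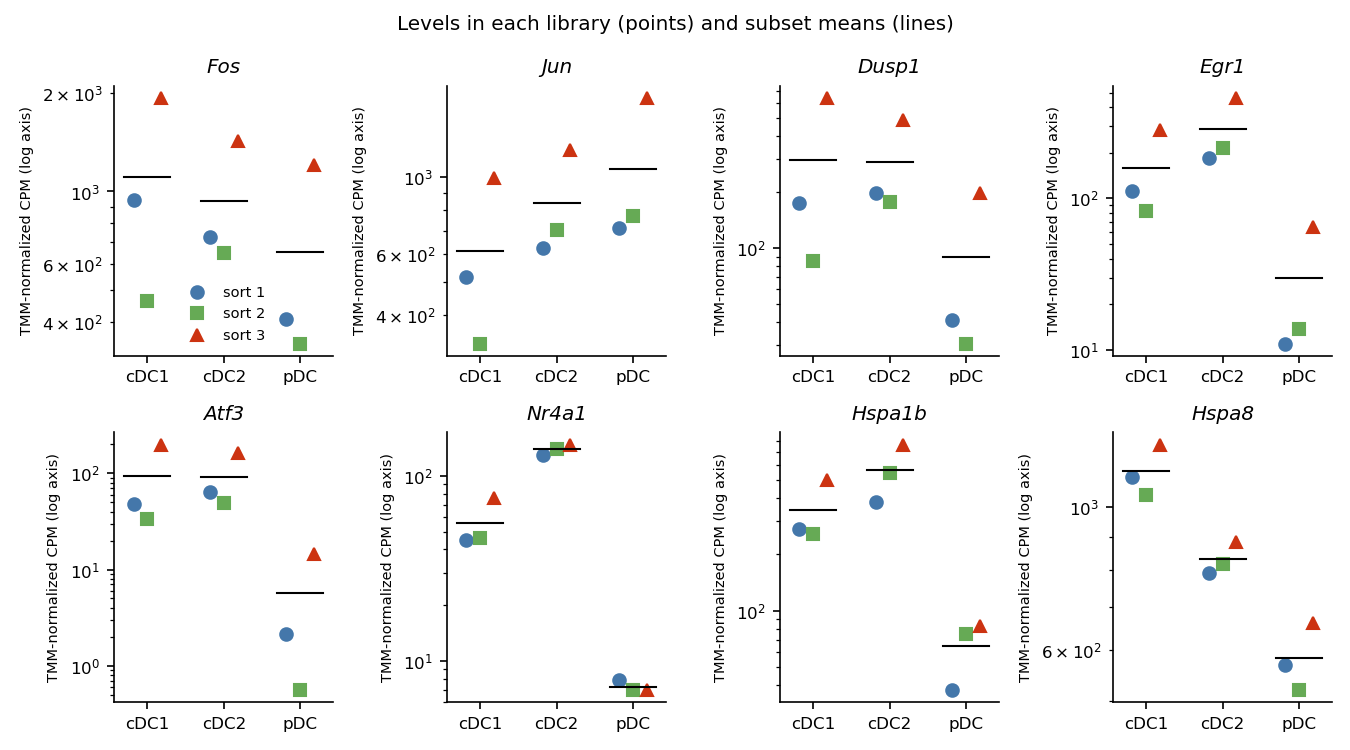
TMM-normalized CPM (log axes, a separate range in each panel) of 8 members in each library, with sorts 1 (circles), 2 (squares) and 3 (triangles) and lines at the subset means. Sort 3 lies highest in every subset for Fos, Jun, Dusp1, Egr1, Atf3, Hspa1b and Hspa8, and the pDC points lie below all cDC points for Egr1, Atf3, Nr4a1, Hspa1b and Hspa8.

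The EGR and NR4A genes were all lower in pDC. EGR1, EGR2 and EGR3 are zinc finger factors induced by MAPK and calcium signals, and NR4A1, NR4A2 and NR4A3 are orphan nuclear receptors that act without a known hormone. All 6 were stably lower in pDC than in cDC1 and than in cDC2, and in all 6 every pDC library was below all 6 cDC libraries. Of all genes, 24.4% and 23.3% were called lower in pDC in these comparisons without a block. Over the 50 members the pDC libraries lay outside the range of all cDC libraries in 20 (4 higher and 16 lower), beside 41.3% of all genes. Nr4a1 (chromosome 15, 101254269 to 101274795, GRCm38) stood at 45.0, 45.9 and 75.6 CPM in cDC1, 129, 140.4 and 147 CPM in cDC2, and 7.90, 6.94 and 6.95 CPM in pDC. The 3 subsets did not overlap in this gene. Nr4a1 was lower in pDC than in cDC1 (log2 fold change -2.92 ± 0.21, adjusted p = 2.46e-06) and cDC2 (log2 fold change -4.25 ± 0.22, adjusted p = 3.38e-07), and higher in cDC2 than in cDC1 (log2 fold change 1.33 ± 0.19, adjusted p = 7.54e-04). Its sort difference did not pass the test (adjusted p = 0.314). Nr4a3 stood at 37.4, 32.1 and 39.1 CPM in cDC1, 30.6, 26.9 and 37.2 CPM in cDC2, and 1.66, 0.507 and 1.47 CPM in pDC, and cDC1 and cDC2 overlapped. The difference of pDC from cDC1 was -4.86 ± 0.34 (log2, adjusted p = 2.05e-06) and that from cDC2 was -4.66 ± 0.34 (adjusted p = 2.75e-06). Nr4a2 stood at 4.99, 3.54 and 6.03 CPM in cDC1, 3.73, 2.84 and 5.95 CPM in cDC2, and 0.303, 0.152 and 0 CPM in pDC. Its counts in pDC were 10, 3 and 0, so the fitted difference from cDC1 (-4.77 ± 0.68, adjusted p = 2.54e-04) and from cDC2 (-4.55 ± 0.67, adjusted p = 3.64e-04) depends on how low counts are smoothed, and without pDC replicate 1 both were larger in size (-5.81 from cDC1). Nr4a2, like Egr3 below, passed the count filter through its cDC libraries. The calls of Nr4a2 and Egr3 in pDC therefore carry less weight than those of the other EGR and NR4A genes.

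Egr1 differed between subsets and also between sorts. It stood at 111, 82.2 and 283 CPM in cDC1, 186, 216 and 459.6 CPM in cDC2, and 11.0, 13.7 and 64.3 CPM in pDC. In each subset sort 3 was the highest, yet the highest pDC library stayed below the lowest cDC1 library. Egr1 was lower in pDC than in cDC1 (log2 fold change -2.43 ± 0.74, adjusted p = 0.0207) and cDC2 (log2 fold change -3.29 ± 0.76, adjusted p = 0.00567), and the sort difference had an adjusted p of 0.0024. The call against cDC1 was lost without cDC1 replicate 3, pDC replicate 1 or pDC replicate 2, whereas the direction was kept. Without pDC replicate 3 the log2 fold change was -3.69 against cDC1 and -4.54 against cDC2, and without cDC1 replicate 3 it was -1.77 against cDC1 (Egr1). Egr2 stood at 3.02, 2.17 and 6.84 CPM in cDC1, 6.09, 5.88 and 20.5 CPM in cDC2, and 0.787, 0.760 and 1.41 CPM in pDC. It was lower in pDC than in cDC2 (log2 fold change -3.47 ± 0.65, adjusted p = 0.00171) and, with the same 3 libraries deciding the call, than in cDC1 (log2 fold change -2.02 ± 0.64, adjusted p = 0.0248), and without cDC2 replicate 3 the difference from cDC2 was -2.62 (Egr2). Egr3 had another order, with cDC1 the highest. It stood at 6.67, 7.51 and 7.65 CPM in cDC1, 1.78, 1.26 and 1.44 CPM in cDC2, and 0.242, 0.304 and 0 CPM in pDC, and neither cDC2 nor pDC reached the cDC1 libraries. Egr3 was lower in cDC2 than in cDC1 (log2 fold change -2.28 ± 0.50, adjusted p = 0.0083) and lower in pDC than in cDC1 (log2 fold change -5.20 ± 0.61, adjusted p = 7.48e-05) and cDC2 (log2 fold change -2.92 ± 0.60, adjusted p = 0.00281), with 8, 6 and 0 counts in the pDC libraries. Nr4a1 and Egr3 were thus called in opposite directions between cDC2 and cDC1. Egr1 (log2 fold change 0.95 ± 0.23, adjusted p = 0.0114) and Egr2 (log2 fold change 1.35 ± 0.26, adjusted p = 0.00374) were called higher in cDC2 than in cDC1 only with the sort as a block.

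**Figure D5:**
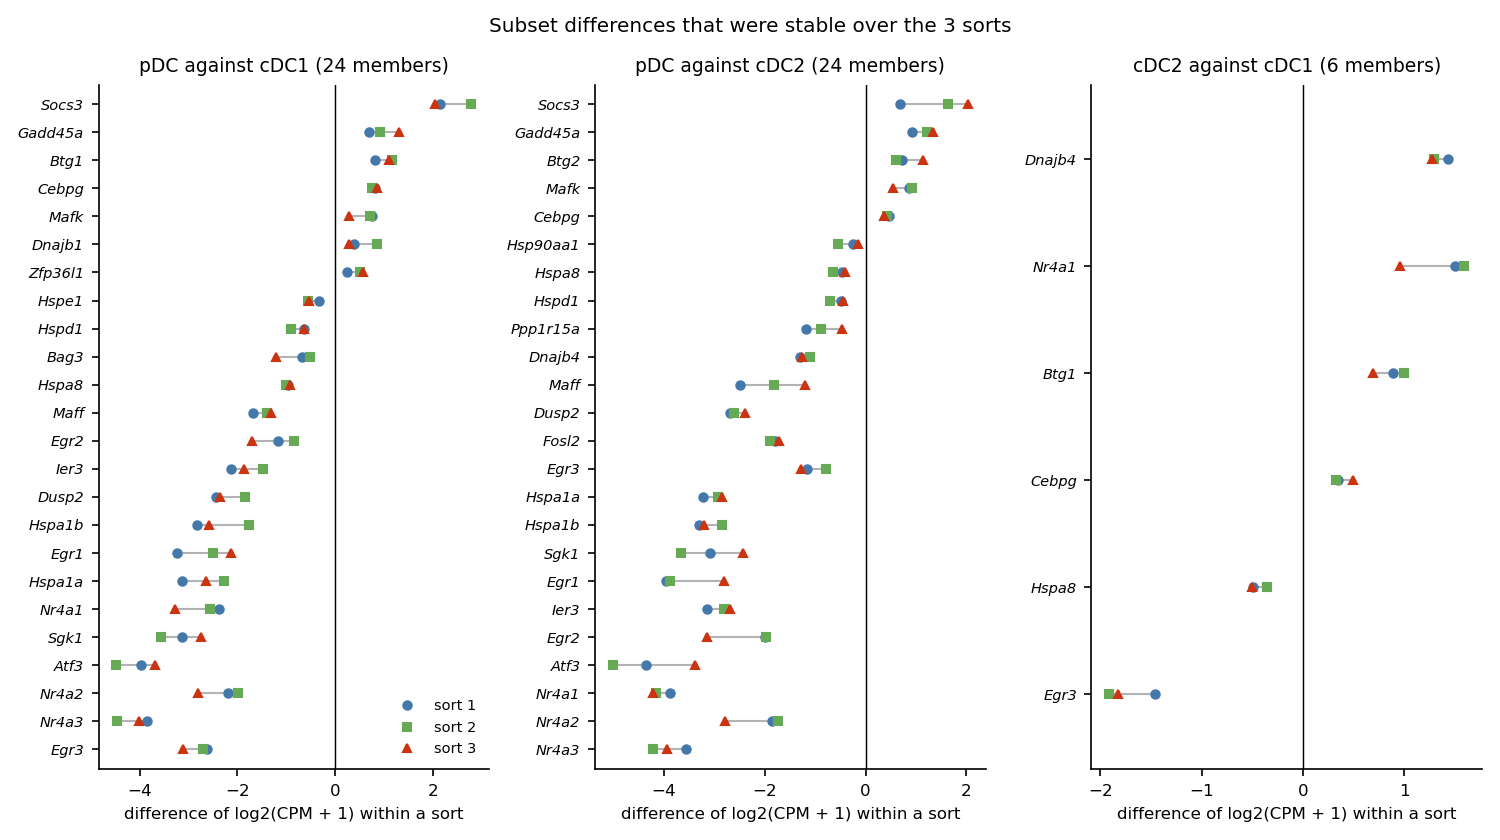
Difference of log2(CPM + 1) between 2 subsets within each sort (x axes, a separate range in each panel) for the members whose difference was stable, with sorts 1 (circles), 2 (squares) and 3 (triangles). For pDC against cDC1, 17 of 24 members lie left of 0 in all sorts, Atf3 and Nr4a3 farthest, and 7 lie right of 0.

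Atf3, Maff, Mafk and Cebpg encode leucine zipper factors of stress responses. Atf3, a repressor of inflammatory cytokine genes, stood at 48.5, 33.6 and 198 CPM in cDC1, 63.6, 49.4 and 161 CPM in cDC2, and 2.15, 0.558 and 14.6 CPM in pDC. Sort 3 was the highest in each subset, and no pDC library reached a cDC library. Atf3 was lower in pDC than in cDC1 (log2 fold change -4.07 ± 1.09, adjusted p = 0.0112) and cDC2 (log2 fold change -4.04 ± 1.09, adjusted p = 0.0122), and it also differed between sorts (adjusted p = 0.0024). The size of the subset differences rested on single libraries of sort 3, at -5.98 without pDC replicate 3 and -2.94 without cDC1 replicate 3 against cDC1, and at -5.96 without pDC replicate 3 and -3.37 without cDC2 replicate 3 against cDC2, and both calls were lost without the whole of sort 1. Maff stood at 4.15, 3.63 and 10.4 CPM in cDC1, 8.0, 5.18 and 9.51 CPM in cDC2, and 0.605, 0.760 and 3.59 CPM in pDC and was lower in pDC than in cDC1 (log2 fold change -1.91 ± 0.69, adjusted p = 0.0433) and cDC2 (log2 fold change -2.24 ± 0.69, adjusted p = 0.0235). The call for Maff against cDC1 was lost without any 1 of 7 of the 9 libraries, the exceptions being cDC1 replicate 2 and pDC replicate 3, and that against cDC2 was lost without cDC2 replicate 1 or 3 or pDC replicate 1 or 2. The log2 fold change of Maff was -3.14 against cDC1 and -3.47 against cDC2 without pDC replicate 3, and -1.32 against cDC1 without cDC1 replicate 3. Mafk and Cebpg went the other way. Mafk, whose product is a small MAF protein like that of Maff, stood at 29.1, 31.9 and 37.2 CPM in cDC1, 26.9, 27.2 and 30.9 CPM in cDC2, and 49.7, 52.6 and 45.5 CPM in pDC and was higher in pDC than in cDC1 (log2 fold change 0.59 ± 0.13, adjusted p = 0.00354) and cDC2 (log2 fold change 0.80 ± 0.13, adjusted p = 6.19e-04). Cebpg stood at 43.2, 46.9 and 40.2 CPM in cDC1, 55.3, 59.1 and 56.9 CPM in cDC2, and 76.5, 79.9 and 73.2 CPM in pDC, and the 3 subsets did not overlap. It rose in the order cDC1, cDC2, pDC, with a log2 difference of 0.40 ± 0.10 between cDC2 and cDC1 (adjusted p = 0.0169; lost without cDC1 replicate 1 or 3 or cDC2 replicate 2) and 0.42 ± 0.10 between pDC and cDC2 (adjusted p = 0.00629). Neither Mafk nor Cebpg passed the test for a sort difference (adjusted p = 0.691 and 0.446).

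Klf6, Klf10 and Csrnp1 encode nuclear factors induced by growth factor and TGF-β signals. None of these 3 had a stable subset difference, and all 3 differed between sorts. Klf6 stood at 155, 141 and 398 CPM in cDC1, 147, 149.8 and 247 CPM in cDC2, and 99.3, 102 and 310.5 CPM in pDC, so that every sort 3 library was above every library of sorts 1 and 2. The log2 fold change of sort 3 was 1.27 ± 0.16 against sort 1 (adjusted p = 0.00243) and 1.29 ± 0.16 against sort 2 (adjusted p = 0.00129). Csrnp1 stood at 33.7, 26.0 and 81.6 CPM in cDC1, 67.2, 57.8 and 109 CPM in cDC2, and 45.6, 48.7 and 149 CPM in pDC, with a rise in sort 3 of 1.40 ± 0.17 against sort 2 (adjusted p = 0.00119). Klf10 stood at 8.34, 8.97 and 16.0 CPM in cDC1, 14.8, 13.4 and 18.2 CPM in cDC2, and 16.1, 14.4 and 30.9 CPM in pDC, and its sort difference (adjusted p = 0.0191) was lost without any 1 of the cDC1 or pDC libraries. With the block, Csrnp1 and Klf10 were called higher and Klf6 lower in pDC than in cDC1 (adjusted p = 0.00557, 0.00216 and 0.0302).

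Feedback inhibitors lay on both sides. The phosphatases DUSP1, DUSP2 and DUSP5 switch off MAP kinases. Dusp2 stood at 56.8, 42.3 and 94.4 CPM in cDC1, 68.1, 72.7 and 96.9 CPM in cDC2, and 9.75, 11.0 and 17.7 CPM in pDC, and no pDC library reached a cDC library. It was stably lower in pDC than in cDC1 (log2 fold change -2.33 ± 0.33, adjusted p = 2.40e-04) and cDC2 (log2 fold change -2.63 ± 0.33, adjusted p = 1.24e-04), and both calls held under every alternative run. Dusp1 stood at 174, 85.1 and 637 CPM in cDC1, 199, 178 and 488 CPM in cDC2, and 41.1, 30.7 and 197 CPM in pDC. Sort 3 of pDC was above sorts 1 and 2 of cDC1, and the pDC difference from cDC1 did not pass without a block (log2 fold change -1.74 ± 0.87, adjusted p = 0.127). Within sorts it was -2.05, -1.44 and -1.69, and with the block it passed (log2 fold change -1.75 ± 0.25, adjusted p = 2.84e-04), as it did against cDC2 (log2 fold change -2.06 ± 0.25, adjusted p = 1.22e-04; adjusted p = 0.142 without the block). Sort 3 exceeded sort 1 by 1.84 ± 0.24 and sort 2 by 2.34 ± 0.25 on the log2 scale (adjusted p = 0.00279 and 5.96e-04). Dusp5 stood at 47.5, 29.1 and 73.2 CPM in cDC1, 79.6, 57.4 and 84.2 CPM in cDC2, and 49.0, 44.2 and 109 CPM in pDC and had no stable subset difference.

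Socs3, the feedback inhibitor of cytokine receptor signalling through STAT3, had the largest stable rise in pDC among the members against both cDC subsets. It stood at 2.62, 2.34 and 9.82 CPM in cDC1, 8.96, 6.37 and 9.94 CPM in cDC2, and 15.0, 21.9 and 43.7 CPM in pDC and was higher in pDC than in cDC1 (log2 fold change 2.48 ± 0.58, adjusted p = 0.00575) and cDC2 (log2 fold change 1.67 ± 0.56, adjusted p = 0.0335). No cDC library reached a pDC library. Without cDC1 replicate 3 the difference from cDC1 was 3.39. The call against cDC2 was lost when cDC2 replicate 1, 2 or 3 or pDC replicate 3 was left out. Zfp36, whose product triggers the decay of AU-rich mRNAs, stood at 491, 281 and 1063 CPM in cDC1, 817, 718 and 1371 CPM in cDC2, and 439.9, 369 and 877 CPM in pDC. Its subset differences were called only with the block, as lower in pDC than in cDC2 (log2 fold change -0.84 ± 0.15, adjusted p = 0.00143) and higher in cDC2 than in cDC1 (log2 fold change 0.81 ± 0.15, adjusted p = 0.00331), while its sort difference held under every alternative run (adjusted p = 0.00172). Its relative Zfp36l1 stood at 124, 103 and 132 CPM in cDC1, 151, 129 and 154 CPM in cDC2, and 147, 146 and 196 CPM in pDC and was higher in pDC than in cDC1 (log2 fold change 0.45 ± 0.15, adjusted p = 0.0303), a call lost without cDC1 replicate 1, cDC1 replicate 2, cDC2 replicate 3 or pDC replicate 3. Of its exon bases, 55.9% are antisense to Gm26669. Ppp1r15a, which encodes GADD34, the phosphatase subunit that restores translation after stress, stood at 69.3, 56.7 and 104 CPM in cDC1, 118, 169 and 123 CPM in cDC2, and 51.4, 91.3 and 88.1 CPM in pDC. It was lower in pDC than in cDC2 (log2 fold change -0.83 ± 0.27, adjusted p = 0.0317), and the call was lost without cDC2 replicate 2 or pDC replicate 1.

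The growth arrest and early response members also divided. Ier3, an early response gene linked to survival signals, stood at 8.34, 5.34 and 16.5 CPM in cDC1, 17.8, 14.9 and 30.4 CPM in cDC2, and 1.12, 1.27 and 3.83 CPM in pDC. No pDC library reached a cDC library. It was lower in pDC than in cDC1 (log2 fold change -2.31 ± 0.57, adjusted p = 0.0074) and cDC2 (log2 fold change -3.38 ± 0.58, adjusted p = 9.88e-04), with log2 fold changes of -3.06 and -4.14 without pDC replicate 3. Ier2 stood at 58.5, 40.5 and 145 CPM in cDC1, 82.1, 73.2 and 157 CPM in cDC2, and 28.3, 28.3 and 83.8 CPM in pDC and Ier5 at 291, 222 and 506 CPM in cDC1, 349, 346 and 522 CPM in cDC2, and 266, 332 and 689 CPM in pDC. Both were highest in sort 3 in every subset, and the sort difference of Ier2 had the smallest adjusted p among the members (6.95e-04). Ier2 was called lower in pDC only with the block (log2 fold change -0.79 ± 0.14, adjusted p = 0.00147 against cDC1 and log2 fold change -1.27 ± 0.14, adjusted p = 8.17e-05 against cDC2). Rhob, which encodes a small GTPase and is an immediate-early gene, stood at 43.0, 27.9 and 111 CPM in cDC1, 61.4, 61.9 and 139 CPM in cDC2, and 38.0, 35.1 and 187 CPM in pDC. Sort 3 of pDC was the highest of the 9 libraries, while sorts 1 and 2 of pDC were among the 4 lowest, and the subset comparisons without a block gave adjusted p between 0.586 and 0.989. The log2 difference of sort 3 was 1.64 ± 0.23 from sort 1 and 1.87 ± 0.23 from sort 2 (adjusted p = 0.00345 and 0.00119).

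Of the antiproliferative genes, Btg1 stood at 306, 247 and 382 CPM in cDC1, 568, 496 and 619 CPM in cDC2, and 536, 557 and 814 CPM in pDC. It was lower in cDC1 than in pDC (log2 fold change 1.03 ± 0.20, adjusted p = 0.00185 for pDC against cDC1) and than in cDC2 (log2 fold change 0.85 ± 0.20, adjusted p = 0.0112 for cDC2 against cDC1), with every cDC1 library below all others. Its relative Btg2 stood at 202, 224 and 316 CPM in cDC1, 142, 172 and 219.7 CPM in cDC2, and 236, 262 and 484 CPM in pDC and was higher in pDC than in cDC2 (log2 fold change 0.88 ± 0.29, adjusted p = 0.0311). The call was lost without cDC2 replicate 1, cDC2 replicate 2 or pDC replicate 3, and within sorts the difference was 0.73, 0.61 and 1.14. Gadd45a, a sensor of DNA damage and stress, stood at 2.73, 2.59 and 2.71 CPM in cDC1, 2.17, 1.89 and 2.60 CPM in cDC2, and 4.99, 5.73 and 8.13 CPM in pDC, and all pDC libraries were above all cDC libraries. It was higher in pDC than in cDC1 (log2 fold change 1.23 ± 0.29, adjusted p = 0.00553) and cDC2 (log2 fold change 1.499 ± 0.29, adjusted p = 0.00196). Gadd45b stood at 109.8, 65.5 and 79.9 CPM in cDC1, 134, 108 and 116 CPM in cDC2, and 68.3, 98.7 and 89.1 CPM in pDC, passed no test of subset or sort, and had 44.0% of its spread outside both.

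Among the 13 heat-shock members, 7 differed stably between pDC and cDC1 (6 lower and 1 higher in pDC) and 6 between pDC and cDC2 (all lower in pDC), shares near the 48.1% and 45.2% of all genes. Hspa1a and Hspa1b, the stress-inducible HSP70 genes, had the largest differences of pDC from both cDC subsets among them. Hspa1a (chromosome 17, 34969190 to 34972156) stood at 309, 318 and 475 CPM in cDC1, 328, 500.3 and 544 CPM in cDC2, and 34.1, 64.7 and 74.99 CPM in pDC. Hspa1b (chromosome 17, 34956436 to 34959238) stood at 274, 257 and 501 CPM in cDC1, 379, 546 and 768 CPM in cDC2, and 37.7, 75.3 and 82.4 CPM in pDC. For both genes the highest pDC library was below the lowest cDC library by more than 3 times. Hspa1a was lower in pDC than in cDC1 (log2 fold change -2.67 ± 0.32, adjusted p = 8.27e-05) and cDC2 (log2 fold change -2.98 ± 0.32, adjusted p = 4.65e-05), and so was Hspa1b (log2 fold change -2.40 ± 0.38, adjusted p = 5.49e-04 and log2 fold change -3.12 ± 0.39, adjusted p = 1.28e-04). The 2 genes are near copies, and 61.7% of Hspa1a and 55.8% of Hspa1b 75-base windows also occur in other genes, each other included. Summed to 1 gene, they were lower in pDC by a log2 fold change of -2.53 against cDC1 and -3.05 against cDC2 (adjusted p = 0.000208 and 7.42e-05). Both also differed between sorts (adjusted p = 0.014 and 0.0119), and sort 1 was the lowest sort in pDC and cDC2.

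Hspa8, the constitutive HSP70, was also lowest in pDC. It stood at 1114, 1045 and 1249 CPM in cDC1, 791, 816 and 881 CPM in cDC2, and 569, 520.1 and 660.3 CPM in pDC, and the 3 subsets did not overlap. The difference of pDC was -0.96 ± 0.11 from cDC1 (log2, adjusted p = 7.09e-05) and -0.51 ± 0.11 from cDC2 (adjusted p = 0.00426), and that of cDC2 from cDC1 was -0.45 ± 0.11 (adjusted p = 0.0148), a call lost without cDC2 replicate 1. For Hspa8, 68.6% of 75-base windows are shared with pseudogenes and related genes. The chaperonin genes Hspd1 and Hspe1, which share the heat shock elements printed above, stood at 136, 127 and 129 CPM in cDC1, 123, 110.3 and 112 CPM in cDC2, and 87.1, 67.5 and 81.9 CPM in pDC for Hspd1 and 109.5, 107 and 94.1 CPM in cDC1, 92.7, 90.5 and 74.9 CPM in cDC2, and 86.2, 72.9 and 64.2 CPM in pDC for Hspe1. Hspd1 was lower in pDC than in cDC1 (log2 fold change -0.73 ± 0.12, adjusted p = 5.17e-04) and cDC2 (log2 fold change -0.55 ± 0.11, adjusted p = 0.00312). Hspe1 was lower in pDC than in cDC1 (log2 fold change -0.48 ± 0.14, adjusted p = 0.0167), a call lost without cDC1 replicate 1 or 2, and called lower than in cDC2 only with the block (log2 fold change -0.21 ± 0.073, adjusted p = 0.0364).

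The HSP90 genes and the co-chaperones gave smaller differences. Hsp90ab1, the constitutive HSP90, was the member with the highest level per kb in each subset (797, 619.5 and 624 CPM per kb in cDC1, cDC2 and pDC). It stood at 2599, 2698 and 1877 CPM in cDC1, 1898, 1998 and 1677 CPM in cDC2, and 2069.6, 2057 and 1489 CPM in pDC. In contrast to most members it was lowest in sort 3 in every subset (log2 fold change -0.37 ± 0.068, adjusted p = 0.00948 for sort 3 against sort 1), as was Hspe1 (log2 fold change -0.32 ± 0.073, adjusted p = 0.0244). The sort difference of Hspe1 was lost when any 1 library other than pDC replicate 2 was left out, and that of Hsp90ab1 without cDC1 replicate 3. Hsp90aa1, the inducible HSP90, stood at 175, 188 and 177 CPM in cDC1, 191, 239.8 and 197 CPM in cDC2, and 162, 164 and 177 CPM in pDC. It was lower in pDC than in cDC2 (log2 fold change -0.32 ± 0.11, adjusted p = 0.0345), a call lost without cDC1 replicate 1, cDC2 replicate 2, pDC replicate 1 or pDC replicate 2, and 53.1% of its windows are shared with other genes. Among the co-chaperones, Dnajb4 stood at 3.50, 2.92 and 7.18 CPM in cDC1, 11.1, 8.61 and 18.7 CPM in cDC2, and 3.87, 3.50 and 7.19 CPM in pDC and was higher in cDC2 than in cDC1 (log2 fold change 1.51 ± 0.44, adjusted p = 0.0321) and lower in pDC than in cDC2 (log2 fold change -1.40 ± 0.44, adjusted p = 0.0249). The cDC2 call was lost without cDC1 replicate 1 or 2 or cDC2 replicate 1 or 3, and the pDC call without cDC2 replicate 3 or pDC replicate 1 or 2. Bag3, an HSP70 co-chaperone of protein quality control, stood at 12.2, 10.7 and 19.2 CPM in cDC1, 11.0, 9.42 and 17.0 CPM in cDC2, and 7.26, 7.25 and 7.66 CPM in pDC and was lower in pDC than in cDC1 (log2 fold change -0.92 ± 0.28, adjusted p = 0.0209), a call lost without cDC1 replicate 3 or pDC replicate 1.

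Dnajb1, the HSP40 partner of HSP70, was the heat-shock member that was higher in pDC than in cDC1. It stood at 89.6, 84.4 and 111 CPM in cDC1, 104, 149 and 95.1 CPM in cDC2, and 116, 154 and 136 CPM in pDC (log2 fold change 0.51 ± 0.19, adjusted p = 0.0469), with the call lost without any 1 of cDC1 replicates 1 and 2, cDC2 replicate 1 and pDC replicates 2 and 3. Dnaja1 stood at 54.8, 49.9 and 62.6 CPM in cDC1, 46.7, 46.7 and 60.8 CPM in cDC2, and 36.4, 39.5 and 89.3 CPM in pDC and Hsph1 at 96.2, 89.2 and 123 CPM in cDC1, 72.9, 70.2 and 108 CPM in cDC2, and 61.6, 44.9 and 120.3 CPM in pDC, and Hsph1 differed between sorts (adjusted p = 0.0156). Hsf1, the gene of the factor that drives the inducible chaperones, stood at 28.3, 28.4 and 29.9 CPM in cDC1, 27.4, 28.1 and 29.7 CPM in cDC2, and 31.5, 35.8 and 23.4 CPM in pDC. The subsets overlapped, and Hsf1 passed no comparison of subsets (log2 fold change 0.07 ± 0.15, adjusted p = 0.741 for pDC against cDC1, log2 fold change 0.09 ± 0.15, adjusted p = 0.665 for pDC against cDC2 and log2 fold change -0.02 ± 0.15, adjusted p = 0.944 for cDC2 against cDC1) or sorts (adjusted p = 0.802).

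Sgk1, Tsc22d3 and Per1 are induced by glucocorticoids. Sgk1, which encodes a kinase of ion transport and survival, stood at 34.9, 37.0 and 53.7 CPM in cDC1, 33.5, 40.2 and 43.3 CPM in cDC2, and 3.09, 2.23 and 7.19 CPM in pDC. No pDC library reached a cDC library, and Sgk1 was lower in pDC than in cDC1 (log2 fold change -3.35 ± 0.39, adjusted p = 6.26e-05) and cDC2 (log2 fold change -3.25 ± 0.38, adjusted p = 8.33e-05) under every alternative run, with log2 fold changes of -3.95 and -3.85 without pDC replicate 3. Tsc22d3, which encodes the glucocorticoid-induced leucine zipper GILZ, did not follow it. It stood at 56.7, 85.2 and 65.4 CPM in cDC1, 78.0, 115 and 68.8 CPM in cDC2, and 62.5, 94.8 and 92.1 CPM in pDC, with sort 2 the highest sort in each subset, and only its sort difference passed (adjusted p = 0.0376), a call lost when any 1 of 7 of the 9 libraries was left out, the exceptions being cDC2 replicate 3 and pDC replicate 3. Per1, a clock gene, stood at 23.5, 21.9 and 24.6 CPM in cDC1, 26.5, 30.7 and 28.2 CPM in cDC2, and 22.1, 29.3 and 38.9 CPM in pDC and passed neither test.

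The block changed how many subset differences were called more than it changed their direction. With it, 35 members differed between pDC and cDC1, 32 between pDC and cDC2 and 25 between cDC2 and cDC1, beside 58.6%, 55.5% and 35.6% of all genes, and 40 differed between any subsets (66.7%). The added calls for pDC against cDC1 were Btg2, Csrnp1, Dusp1, Fos, Hsp90ab1, Hsph1, Ier2, Jun, Junb, Klf10 and Klf6. Those for pDC against cDC2 were Bag3, Dusp1, Fos, Hspe1, Ier2, Junb, Jund and Zfp36. Between cDC2 and cDC1, 19 calls were added, among them Egr1, Egr2, Ier3, Jun, Socs3 and Zfp36, all higher in cDC2, and Btg2, Hsp90ab1, Hspe1 and Jund, all lower. Without sort 3, the fit with no block called 35, 37 and 22 members in the same 3 comparisons, and these held all 24, 24 and 6 of the calls made with it. Over all genes that fit called 8958, 8507 and 5356, beside 6718, 6328 and 3370 with all libraries. The sign was the same in all 3 sorts in 40, 36 and 41 of the 50 members, beside 75.7%, 73.5% and 67.5% of all genes. Members whose sign differed between sorts for pDC against cDC1 were Dnaja1, Fosb, Gadd45b, Hsf1, Ier5, Jund, Per1, Ppp1r15a, Rhob and Zfp36.

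Genes that are no members but belong to the same pathways were counted in 3 lists. Of 28 tested genes of the SRF and MAPK early response, 19 differed between pDC and cDC1 (7 higher and 12 lower in pDC; 48.6% of all genes) and 18 between pDC and cDC2 (3 higher and 15 lower; 45.8%). Nab2, the EGR corepressor that EGR factors induce, stood at 14.5 ± 2.16 CPM (SD, n = 3) in cDC1, 8.48 ± 1.55 CPM in cDC2 and 0.838 ± 0.267 CPM in pDC, and was lower in pDC than in cDC1 (log2 fold change -4.08 ± 0.30, adjusted p = 2.74e-06) and cDC2 (log2 fold change -3.31 ± 0.29, adjusted p = 1.09e-05). Jdp2, an AP-1 repressor, was lower in pDC than in cDC1 too (log2 fold change -3.15 ± 0.18, adjusted p = 6.22e-07). Between sorts, 7 of the 28 differed (16.3% of all genes), Klf2 having the largest difference of sort 3 from sort 1 (log2 fold change 1.40 ± 0.17, adjusted p = 0.00185). Sort 3 was the highest in all subsets in 6 of the 28, beside 17.3% of all genes. Of 37 chaperone genes, 20 differed between pDC and cDC1 (3 higher and 17 lower in pDC), 16 between pDC and cDC2 (6 higher and 10 lower) and 7 between sorts. These totals were near the same shares of all genes. The directions for pDC against cDC1 were less even than over all genes (24.3% higher and 24.4% lower). Dnajc7, a co-chaperone of HSP70 and HSP90, was the largest of these and higher in pDC (log2 fold change 2.14 ± 0.13, adjusted p = 7.64e-07 for pDC against cDC1), while Hsf2, a relative of Hsf1, was lower (log2 fold change -1.53 ± 0.27, adjusted p = 9.80e-04). Of 13 glucocorticoid and clock genes, 7 were higher and 0 lower in pDC than in cDC1 (24.3% and 24.4% of all genes). Between cDC2 and cDC1, 6 were higher and 0 lower in cDC2 (12.7% and 11.7%). Tef and Dbp, both output genes of the clock, led in pDC against cDC1 (log2 fold change 1.86 ± 0.15, adjusted p = 4.87e-06 for Tef and log2 fold change 1.71 ± 0.18, adjusted p = 2.92e-05 for Dbp). Against cDC2 the directions were mixed, with a median log2 fold change of -0.10 over the 13 genes. Tef was higher in pDC than in cDC2 (log2 fold change 0.41 ± 0.14, adjusted p = 0.0402) and Nr1d2 was lower (log2 fold change -0.74 ± 0.21, adjusted p = 0.0164). In this list 1 gene differed between sorts (16.3% of all genes).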

How the data were processed

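Poly(A) RNA of 9 libraries of sorted splenic DC subsets was sequenced as single 75-base reads with a stranded kit. The values are the raw gene counts deposited by the authors, with 39179 genes in 1 table. Per the submitters' processing notes, STAR, SAMtools and featureCounts were used with the mm10 build. Versions, the annotation release, and the strand and multimapping settings of the counting are not given in the sources used here. Reads of near-identical genes may therefore have been dropped or split.

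Genes were kept by the edgeR filter with a minimum count of 10 (13819 genes) and scaled by TMM, and levels are CPM from these scaled totals. Subsets were compared with edgeR's quasi-likelihood test over all 9 libraries, with Benjamini-Hochberg adjustment over all genes tested and a threshold of 0.05. The alternative with a replicate block, and the sort tests, added the replicate number. Replicate numbers were taken to pair the libraries because they share a date code in the labels, and deviations of same-numbered libraries from their subset means correlated with a mean r of 0.403 (0.266 to 0.543 over 9 pairs). The labels describe replicates as separate pools of mice, and their counts differed beyond sampling noise (chi-square per degree of freedom of 9.93 to 64.4). Differences within sorts and shares of spread used log2(CPM + 1). Totals of 15806597 to 32453789 counts set the precision of low genes.

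Fold changes with errors are printed for members past the threshold, for those called only with the block, and in any case for Fos, Jun, Egr1, Dusp1, Atf3, Hspa1a, Hspa1b and Hsf1. At most 3 genes per pathway list are named, by size of change and a mean of at least 10 CPM. The members, their roles and the pathway and marker lists were chosen with earlier results of these data known. The scripts were tested on simulated data. For pDC against cDC1 without a block, 39.8% of genes changed by a log2 of 1 and 62.2% of those changed by 2 were recovered. The sort test recovered 57.6% and 79.5%. False calls were 6.31% and 6.12% of the calls. Differences of these sizes could therefore be missed, and a member that did not pass was not shown to be equal. Alternatives were DESeq2, other scaling and filters, a fold threshold, and leaving out libraries, sorts or subsets. Exon lengths are from GENCODE M21 (GRCm38), and promoters are from RefSeq (GRCm38.p6). Tools were R 4.3.3, edgeR 4.0.16, DESeq2 1.42.0, limma 3.58.1, Python 3.11.15 and matplotlib 3.10.9.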

Additional observations from a re-analysis of the deposited data

Results flagged for a closer look

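In 5 of the 50 members sort 3 was the highest sort in 1 subset and the lowest in another. The values are the difference of sort 3 from the mean of sorts 1 and 2 on the log2(CPM + 1) scale, each from 1 library of sort 3, and the difference between subsets was not tested. Dnajb1 was at 0.348 in cDC1 and -0.381 in cDC2, a gap of 0.729. Nr4a2 was at 0.707 in cDC2 and -0.293 in pDC, a gap of 1.0, with few counts in pDC. Hsf1 was at 0.094 in cDC2 and -0.501 in pDC, a gap of 0.595. Egr3 was at 0.0995 in cDC1 and -0.348 in pDC, a gap of 0.448, also with few counts in pDC. Mafk was at 0.279 in cDC1 and -0.165 in pDC, a gap of 0.444.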

How the results depend on the processing

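No subset difference of a called member changed direction under any alternative run. The test for any sort difference gives a size without a direction, so it could not reverse. With the replicate block, 25 members instead of 6 differed between cDC2 and cDC1 and 40 instead of 25 between any subsets. It kept all 24, 24 and 6 calls made without it. When a log2 fold change of 1 or more in size was also needed, 3 members differed between cDC2 and cDC1 (3 stable), 14 between sorts 3 and 1, 17 between sorts 3 and 2, and 18 between any sorts. DESeq2 called 2 members between sorts 2 and 1, where edgeR called 0. Without the cDC1 libraries, 6 members differed between sorts 3 and 1, 8 between sorts 3 and 2 and 4 between any sorts. Of all genes, 137, 679 and 182 did so without the cDC1 libraries. Without the cDC2 libraries 18 members differed between any sorts. These fits had fewer libraries.

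Leaving out 1 library or 1 sort at a time gave 13 to 35 members for pDC against cDC1, 13 to 37 for pDC against cDC2, 1 to 22 for cDC2 against cDC1 and 15 to 40 for any subset difference. Over all genes the same ranges were 3927 to 8958, 3585 to 8507, 1207 to 5356 and 4272 to 10193. The lowest counts came without replicate 1 and the highest without replicate 3, and the counts of stable members had the ranges 13 to 35, 13 to 37 and 1 to 22. For sorts, leaving out 1 library gave 16 to 28 members for sort 3 against sort 1 (16 without cDC1 replicate 1 or pDC replicate 1), 21 to 30 for sort 3 against sort 2 and 15 to 26 for any sort (15 without cDC1 replicate 3). The highest count for sort 2 against sort 1 was 1 member, in the fit without the whole of sort 3. Leaving the fold threshold aside, 13 called members for pDC against cDC1 kept their call in every alternative run that tested them. For pDC against cDC2, cDC2 against cDC1 and any sort difference, 12, 1 and 4 did so. Egr3, Nr4a2 and Fosl2 had under 10 counts in at least 1 pDC library. They were therefore not tested with the filter that asked for 10 counts in every library. Other alternatives that ended a call were upper quartile scaling for Dnajb1 and Zfp36l1 in pDC against cDC1 (adjusted p = 0.0589 and 0.0599) and Hspe1 between sorts (0.0537), library size scaling for Hspe1 in pDC against cDC1 (0.0521) and Maff between sorts (0.0501), and no count filter for Hsp90aa1 in pDC against cDC2 (0.0658).

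Over all genes, library size scaling shifted the median log2 fold change to 0.108 for pDC against cDC1 and 0.137 for cDC2 against cDC1. It gave 2204 genes higher and 1287 lower in cDC2 than in cDC1 (1760 and 1610 with TMM), and 992 higher and 1780 lower in sort 3 than in sort 2 (1334 and 1518 with TMM; 1830 and 1370 with upper quartile scaling). The fold threshold reduced the genes called from 6718 to 4063, 6328 to 3837 and 3370 to 1812 for the subset pairs in the order above, from 7736 to 5059 for any subset, from 1887 to 299 and 2852 to 534 for sort 3 against sorts 1 and 2, and from 2253 to 499 for any sort. Genes with few counts, such as Egr3 and Nr4a2 in pDC, were limited by depth.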
